A study of Dugesia japonica with 16 samples.

Results

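PCTR3 was compared with vehicle in posterior pieces of the freshwater planarian *Dugesia japonica* that were regrowing a head. The vehicle group was 4 libraries from pieces held in water with 0.1% ethanol, and the PCTR3 group was 4 libraries from pieces held in water with 10 nM PCTR3. Before surgery, worms of every group went unfed for 7 days in water at 20 °C. They were cut behind the eyes, and the pieces were collected 48 h later. The series also holds 4 libraries each with MCTR3 and RCTR3, at 10 nM, used here only where PCTR3 is set against them. Neither the ethanol carried by the PCTR3 solution nor the number of worms behind a library is given in the sources used here. The unit followed was the assembly component, the set of transcripts that a de novo assembler kept together and gave a shared identifier, with their TPM (a transcript abundance corrected for length and library size) summed. Components with at least 1 TPM in at least 4 of the 8 libraries were kept, which gave 15474 of the 16873 components in the file. They held at least 99.9% of the TPM of each of the 8 libraries.

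Planarians replace lost tissue from neoblasts, adult stem cells spread through the body behind the eyes. After decapitation the wound closes, a blastema forms from neoblast progeny, and the anterior pole, brain and eyes are rebuilt within it while the older tissue remodels. PCTR3 is the cysteinyl member of the protectin conjugates in tissue regeneration, lipid mediators made from docosahexaenoic acid, and the study tested whether such mediators act during this regrowth. Identifiers come without gene names or sequences in the file, so functions, cell types and gene lists could not be read from it. The labelled tissue could not be checked against markers, and whether a change in whole pieces reflects more cells of a type or more RNA per cell cannot be told apart.

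The 8 libraries carried between 956.5 and 1129 kTPM (kilo-TPM) in the deposited values, with vehicle replicate 4 the highest. The sums were 1056, 1047, 1029 and 1129 kTPM in vehicle and 956.5, 965.9, 981.1 and 992.1 kTPM with PCTR3. Every PCTR3 sum was thus below every vehicle sum, so the scale of the deposited values and the compound cannot be told apart. The number of libraries, 4 in each group, limits the precision. The read depth is unknown, since TPM keeps none, so whether it limits the precision as well could not be judged. The labels do not say whether the libraries came from separate batches of worms, so p-values measure the spread between libraries, which may be technical. Vehicle libraries are numbered 1 to 4 in the series and PCTR3 libraries 9 to 12, so compound and position in the numbering cannot be told apart. The 153 components just inside the filter (1 TPM reached in 4 of 8 libraries) had a median level of 1.03 TPM, and the 146 just outside it (3 of 8) had 0.915 TPM.

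Many components differed between PCTR3 and vehicle, and nearly all by less than 2-fold. Of 15474 components, 2519 rose (16.3%) and 2617 fell (16.9%), 5136 in all (33.2%; limma on log2(TPM + 1), adjusted p under 0.05). Changes are given below in log2 units, meaning differences in mean log2(TPM + 1). Folds are likewise of TPM + 1 and understate the change in TPM of low components. The median change was 0.44 log2 units for the rises, -0.36 for the falls and 0.00 over all 15474. Of the rises, 663 were 1.5-fold or larger and 79 were 2-fold or larger. Of the falls, 270 were 1.5-fold or larger and 15 were 2-fold or larger. In 2505 components (16.2% of those tested) all PCTR3 libraries lay above all vehicle libraries, and in 2845 (18.4%) all lay below, 34.6% together.

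How libraries were scaled to each other set the numbers of rises and falls. With each library rescaled to a common TPM sum, 4234 components rose and 1304 fell, and the median log2(TPM + 1) change over all components moved by 0.12. With a common sum that left out the 100 most abundant components, 3500 rose and 1711 fell. No component that rose under the deposited scaling fell under any other scaling tried, or the reverse. In all 5 scalings, the deposited one included, 1932 components rose, or 76.7% of the rises, and 1269 fell, or 48.5% of the falls. Among the 10338 components not called, 89.1% had a 95% interval of the change in TPM + 1 within 1.5-fold, and 99.5% had it within 2-fold.

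**Figure D1:**
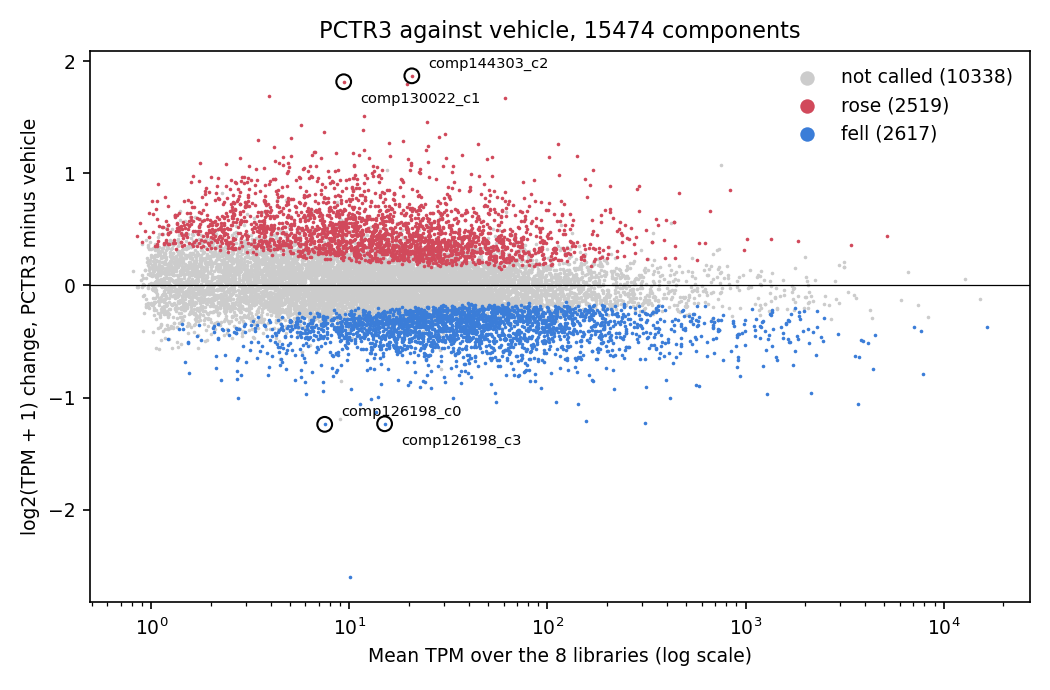
Change of each of the 15474 components on the log2(TPM + 1) scale, PCTR3 minus vehicle, against its mean TPM over the 8 libraries on a log axis. Red points rose (2519), blue points fell (2617) and grey points were not called (10338), and the components named in the text are circled. Under this deposited scaling falls outnumber rises on the right, among abundant components, and rises outnumber falls on the left; after rescaling to a common sum, rises outnumber falls in every abundance quintile.

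Named components were those with the largest changes among called components above 0 TPM in all 8 libraries, with a mean of at least 5 TPM and groups that did not overlap. Their calls also had to hold in each scaling and with each library left out. On the log2(TPM + 1) scale, the largest rise was that of comp144303_c2, a component of 1 transcript. Its vehicle libraries held 8.93, 6.29, 10.2 and 7.73 TPM, and its PCTR3 libraries 35.3, 40.9, 29.1 and 26.7 TPM. The lowest PCTR3 library thus lay well above the highest vehicle library. The mean went from 8.3 ± 1.69 to 33 ± 6.39 TPM (SD, n = 4), 1.87 log2 units (SE 0.15, by limma with adjusted p = 0.00076).

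The next largest rise on this scale was that of comp130022_c1, also of 1 transcript. It was at 5.1, 1.71, 3.46 and 4.28 TPM in the vehicle libraries and at 13.6, 21.9, 11.9 and 12.9 TPM in the PCTR3 libraries. All PCTR3 libraries lay above all vehicle libraries, with replicate 2 standing apart at the top. The means were 3.64 ± 1.45 and 15.1 ± 4.57 TPM (SD, n = 4), and the difference was 1.82 log2 units (SE 0.24, by limma with adjusted p = 0.0017). The order of these rises depended on the pseudocount, the amount added to TPM before the log. With 0.1 TPM added, the log2 change was 2.08 for comp130022_c1 and 1.98 for comp144303_c2. With 5 TPM added, it was 1.21 and 1.51. On the deposited log2 scale comp130022_c1 again had the larger rise.

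Both of these rises had a partner in the assembly that rose less. The assembler gives pieces of a shared assembly graph the same number before the suffix _c, so such pieces may belong to the same gene or to close relatives and are not independent. The other tested piece of graph comp144303 rose from 47.8 ± 3.19 to 63.8 ± 4.74 TPM (SD, n = 4; 0.41 log2 units, SE 0.07, by limma with adjusted p = 0.0036). The other piece of graph comp130022 rose from 10.5 ± 0.958 to 15.9 ± 3.6 TPM (0.53 log2 units, SE 0.15, by limma with adjusted p = 0.02).

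The largest falls that met the same conditions were 2 pieces of a single graph, comp126198. comp126198_c0 was at 9.71, 12.2, 9.56 and 12.3 TPM in the vehicle libraries and at 3.81, 4.36, 3.43 and 4.62 TPM with PCTR3. Every PCTR3 library lay under the lowest vehicle library. The mean went from 10.9 ± 1.52 to 4.05 ± 0.535 TPM (SD, n = 4; -1.24 log2 units, SE 0.11, by limma with adjusted p = 0.0011).

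comp126198_c3 was at 25.4, 22.9, 18.8 and 18.9 TPM in vehicle and at 10.7, 6.54, 8.04 and 9.16 TPM with PCTR3, again without overlap. Its mean went from 21.5 ± 3.2 to 8.62 ± 1.77 TPM (-1.23 log2 units, SE 0.14, by limma with adjusted p = 0.0014). All 6 tested pieces of graph comp126198 fell, each made of 1 transcript. Their log2(TPM + 1) changes lay between -1.24 and -0.86, with adjusted p between 0.0011 and 0.0037 (limma). The pieces shared an assembly number and count as 1 observation rather than 6.

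Shared graphs did not always move as a block. Among 1148 graphs with at least 2 tested components, 200 had at least 2 called components. In 80 of these all called components rose, in 54 all fell, and in 66 both directions occurred. Of the 2503 components in shared graphs 35.9% were called, against 32.7% of the 12971 components alone in their graph and 33.2% of all tested.

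**Figure D2:**
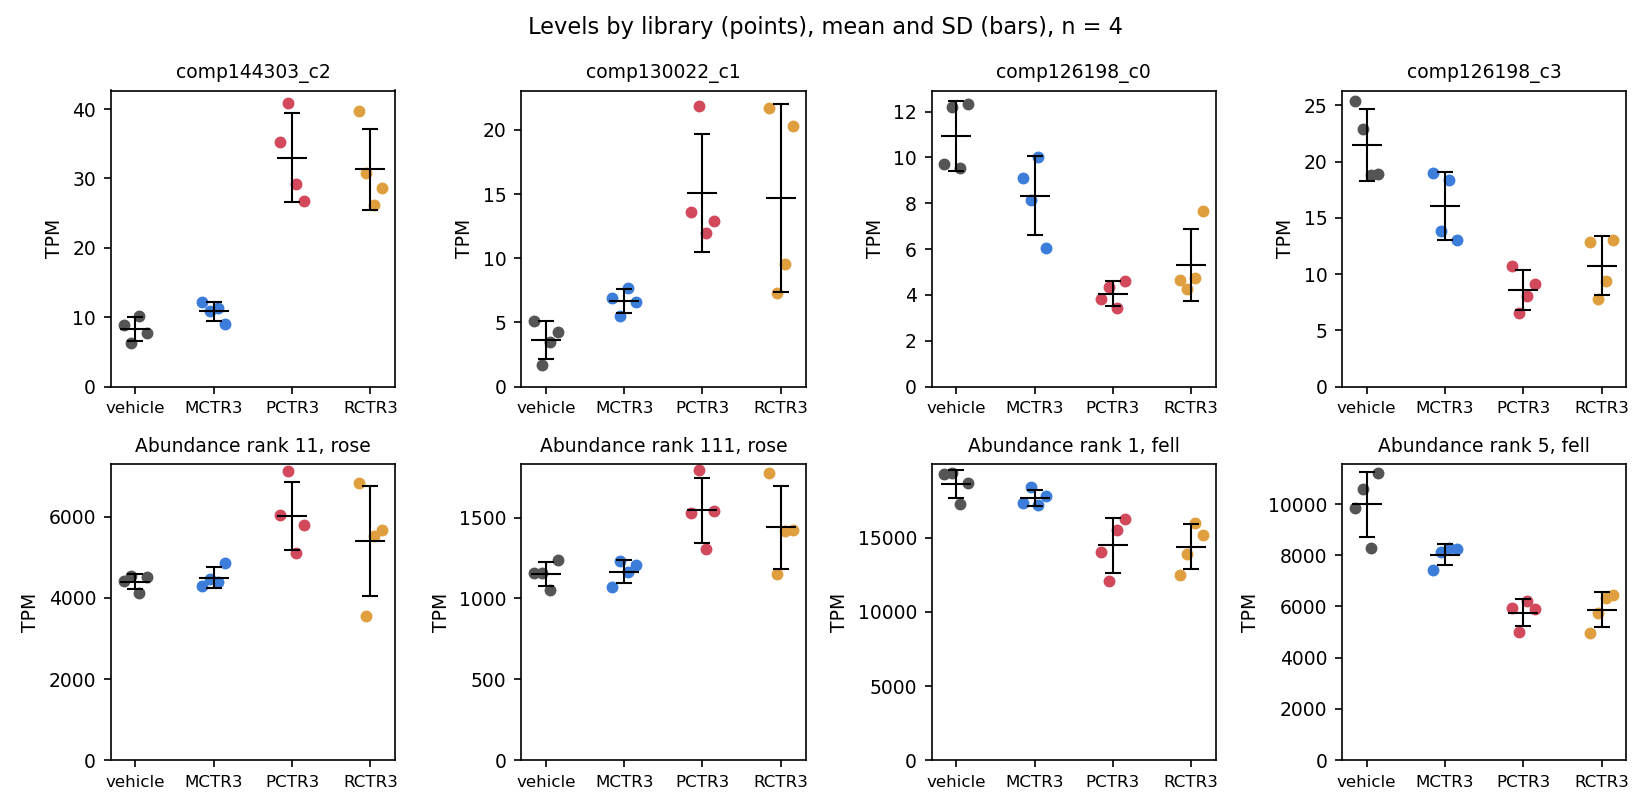
TPM of the named components (top row) and of the most abundant components that rose or fell with groups that did not overlap (bottom row), by group. Points are libraries, and bars are the mean and SD of 4 libraries. PCTR3 libraries lie apart from vehicle libraries in every panel, and in each panel the MCTR3 mean is nearer to vehicle and the RCTR3 mean nearer to PCTR3. Not all of these differences were called. For abundance rank 11, RCTR3 replicate 2 was at 3556 TPM, below every vehicle library, and RCTR3 was not called against vehicle (limma adjusted p = 0.16). PCTR3 was not called against MCTR3 for abundance ranks 1 and 11 (limma adjusted p = 0.11 for each).

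The 79 components that rose at least 2-fold had a lower median level than all tested components, 11.7 against 16.6 TPM. Their mean over the 8 libraries ran from 1.75 to 169 TPM. It was 10 TPM or more in 44 of them and under 5 TPM in 17, and 4 exceeded 100 TPM. All 79 were called in each scaling, and 78 of them also with each library left out. The 15 that fell at least 2-fold had a median of 33.3 TPM and reached 3690 TPM, and all 15 were called in each scaling and with each library left out. Components of 1 transcript made up 14 of these 15 falls and 53 of the 79 rises (67.1%), against 53.9% of all tested components. These classes were drawn from the calls themselves, so their values are a description.

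The most abundant member of the 2-fold class was a component that fell, ranked 20 in mean level among all tested. It held 4980, 4456, 4722 and 5634 TPM in the vehicle libraries and 2123, 1747, 3046 and 2814 TPM with PCTR3. All PCTR3 libraries lay well under the lowest vehicle library. Its mean went from 4948 ± 505 to 2432 ± 602 TPM (SD, n = 4; -1.05 log2 units, SE 0.16, by limma with adjusted p = 0.0024). The other 5 falls above 100 TPM ranked 353, 473, 970, 1067 and 1421. Their vehicle means lay between 149 and 553 TPM and their PCTR3 means between 71 and 282 TPM.

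The 4 rises of at least 2-fold above 100 TPM ranked 894, 1078, 1372 and 1540. The highest of these had 10 assembled transcripts, and its summed level was 117, 117, 110 and 84.9 TPM in vehicle and 204, 367, 146 and 208 TPM with PCTR3. PCTR3 replicate 2 was the highest and replicate 3 the lowest of the PCTR3 libraries, and the groups did not overlap. The mean went from 107 ± 15.4 to 231 ± 94.9 TPM (SD, n = 4; 1.03 log2 units, SE 0.22, by limma with adjusted p = 0.0075). The other 3 went from means of 62.3 to 83.3 TPM in vehicle to means of 141 to 199 TPM with PCTR3.

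A single component, ranked 9906, fell more than 4-fold, and its PCTR3 libraries disagreed among themselves. It was at 14.1, 14, 15.1 and 22.7 TPM in vehicle and at 4.72, 0.00582, 9.97 and 0 TPM with PCTR3, where the 0 is as listed in the file. The groups did not overlap, but the PCTR3 libraries ran from 0 to a level not far under the lowest vehicle library. The difference was -2.60 log2 units (SE 0.67, by limma with adjusted p = 0.014), a size that rests on the libraries at or near 0. Its mean was 14.2 TPM with MCTR3 and 2.33 ± 2.06 TPM with RCTR3.

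No component switched fully on or off. None was at 0.1 TPM or less in all libraries of one group while reaching 1 TPM in all libraries of the other. In 23 components every vehicle library was under 1 TPM and every PCTR3 library at or above it, and in 2 the reverse held. The highest PCTR3 mean of the 23 was 1.77 TPM. Altogether 25 tested components reached 1 TPM in libraries of a single group, so they passed the filter only where they were high. Without them 2498 components rose and 2617 fell.

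Under the deposited scaling, calls among rare components were mostly rises and calls among abundant components mostly falls. Components were divided into quintiles by mean level over the 8 libraries. In the lowest quintile, with a median of 2.46 TPM, 492 components rose and 92 fell, so that 84.2% of calls were rises. The middle quintile, at a median of 16.6 TPM, had 562 rises and 497 falls (53.1% rises). In the highest quintile, with a median of 101 TPM, 365 rose and 1040 fell (26% rises). The share called grew with abundance, from 18.9% in the lowest quintile to 45.4% in the highest. Counts in the lowest quintile depended on single libraries. Its rises numbered 283 without PCTR3 replicate 1, 289 without PCTR3 replicate 2 and 315 without vehicle replicate 4, and its falls 53 without PCTR3 replicate 2 and 57 without PCTR3 replicate 4. The falls of the middle quintile numbered 305 without PCTR3 replicate 2.

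This gradient held under some scalings and not under another. After rescaling to a common TPM sum, rises were 94.4% of the calls in the lowest quintile and 56.1% in the highest, so the direction in the highest quintile turned. Without the 100 most abundant components in the sum the shares were 92.2% and 43.1%, and after median centring 78.8% and 22.1%. Quantile normalization, which gives all libraries the same distribution of values, left 51.5% and 44.8%. Of the 100 most abundant components 3 rose and 45 fell with the deposited scaling, 11 and 36 with a common sum, and 18 and 22 with quantile normalization. The 3 rises became 1 without vehicle replicate 3, PCTR3 replicate 2 or PCTR3 replicate 4, and 2 without vehicle replicate 1 or 2 or PCTR3 replicate 1.

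**Figure D3:**
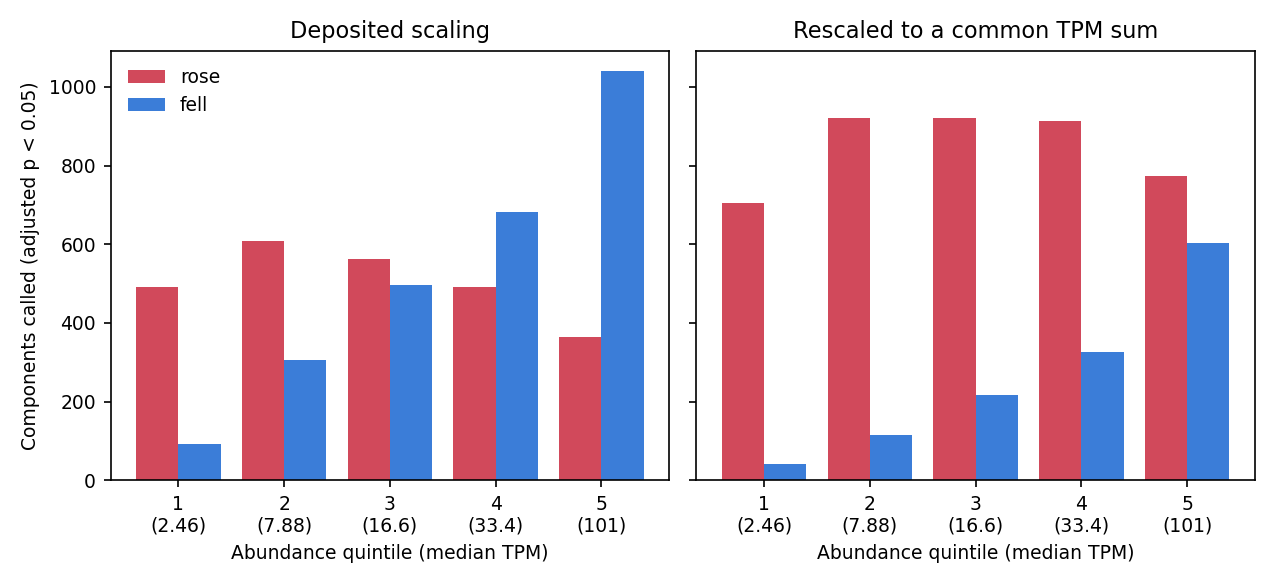
Number of components that rose (red) or fell (blue) in each abundance quintile, with the median TPM of the quintile in brackets, under the deposited scaling (left) and after rescaling to a common TPM sum (right). Under the deposited scaling, rises outnumber falls in the lowest quintile (492 and 92) and falls outnumber rises in the highest (1040 and 365). After rescaling, rises outnumber falls in every quintile.

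The most abundant component of all, of 2 transcripts, was at 19283, 19352, 17296 and 18691 TPM in vehicle and at 14052, 12101, 15563 and 16290 TPM with PCTR3. All PCTR3 libraries lay under all vehicle libraries. The difference was -0.37 log2 units (SE 0.12, by limma with adjusted p = 0.038). The call ended after rescaling to a common sum (adjusted p = 0.077), with the sum without the 100 most abundant components (0.057) and under quantile normalization (0.45, the highest of a range from 0.01). It also ended without a filter (0.065), without vehicle replicate 1 (0.086) or 2 (0.091) and without PCTR3 replicate 1 (0.088) or 2 (0.11). The same held under the replicate block (0.066) and for the common sum without vehicle replicate 4 (0.085).

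The next most abundant component that fell, ranked 5 among all tested, moved further. It was at 9861, 10585, 8295 and 11218 TPM in vehicle and at 5939, 4999, 6199 and 5886 TPM with PCTR3, with a wide gap between the groups. The mean went from 9990 ± 1259 to 5756 ± 523 TPM (SD, n = 4; -0.79 log2 units, SE 0.12, by limma with adjusted p = 0.0021). It was called under every alternative run, with adjusted p between 0.00011 and 0.0093.

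The most abundant component that rose ranked 11. It held 4415, 4534, 4132 and 4513 TPM in vehicle and 6044, 7122, 5100 and 5799 TPM with PCTR3, so the groups did not overlap. The mean went from 4398 ± 185 to 6017 ± 839 TPM (0.44 log2 units, SE 0.11, by limma with adjusted p = 0.012). The next, ranked 111, went from 1152 ± 75.1 to 1544 ± 199 TPM (SD, n = 4; 0.42 log2 units, SE 0.10, by limma with adjusted p = 0.01). Between them lay 2 rises among the 100 most abundant whose groups overlapped. They ranked 24 (2961 ± 278 against 3835 ± 581 TPM; adjusted p = 0.04 by limma) and 67 (1581 ± 134 against 2100 ± 338 TPM; adjusted p = 0.024 by limma). The call of rank 24 ended without vehicle replicate 1, 2 or 3 and without PCTR3 replicate 1, 2 or 4 (adjusted p up to 0.11). That of rank 67 ended without vehicle replicate 3 and without PCTR3 replicate 2 or 4 (adjusted p up to 0.065).

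Of the 10 most abundant components, 4 fell (ranks 1, 5, 6 and 8) and none rose under the deposited scaling. Under quantile normalization the calls of ranks 1, 6 and 8 ended (limma adjusted p = 0.45, 0.66 and 0.33). That of rank 6 also ended without PCTR3 replicate 2 (limma adjusted p = 0.096). The component ranked 2 was at 15857 ± 2117 TPM in vehicle and 14530 ± 861 TPM in PCTR3 libraries (SD, n = 4; adjusted p = 0.47 by limma), and that ranked 3 at 12546 ± 857 and 13105 ± 1802 TPM (limma adjusted p = 0.75). These differences were within the spread between libraries.

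The components that rose made up a larger part of the transcript pool with PCTR3, though far less than those that fell. Rising components held 7.29%, 7.29%, 7.29% and 6.36% of the TPM of the vehicle libraries and 10.8%, 12.1%, 9.36% and 10.3% of the PCTR3 libraries. Falling components held 38.5%, 38.4%, 39.3% and 41.4% in vehicle and 32.1%, 29.4%, 34.5% and 31.9% with PCTR3. In means this was 7.06% ± 0.465 against 10.6% ± 1.13 for the rises and 39.4% ± 1.41 against 32% ± 2.06 for the falls (SD, n = 4). The components were chosen by these differences, so no test is given.

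At the level of whole libraries, the pool was less concentrated with PCTR3. The 100 components with the highest mean over the 8 libraries held 31.2%, 31.2%, 30.3% and 31.9% of the TPM in vehicle and 28.6%, 28.6%, 29.3% and 29.6% with PCTR3. All PCTR3 libraries lay below all vehicle libraries, with a difference in means of -2.13 percentage points (exact two-sided permutation p = 0.0286, Benjamini-Hochberg 0.0286 over 2 tests). The number of components at 1 TPM or more was 15330, 15281, 15368 and 15128 in vehicle and 15521, 15508, 15504 and 15396 with PCTR3. Every PCTR3 library exceeded every vehicle library, by 205.5 components in the mean (exact two-sided permutation p = 0.0286, Benjamini-Hochberg 0.0286 over 2 tests). A p of 0.0286 is the smallest that 4 libraries against 4 can give.

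Components with more assembled transcripts leaned towards rises. Among 8345 components of 1 transcript, 1269 rose and 1637 fell, so that 43.7% of calls were rises. The share was 54.8% among 5092 components of 2 to 4 transcripts and 59.1% among 2037 components of 5 or more. It rose across these classes under each of the 5 scalings, from 69.5% to 88.6% after rescaling to a common sum and from 41.8% to 56.9% with quantile normalization. The component with the most transcripts, 108, stayed at 5.52 ± 0.622 TPM in vehicle and 5.8 ± 0.751 TPM in PCTR3 libraries (SD, n = 4; adjusted p = 0.69 by limma).

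Within components, single transcripts moved mostly with their sum. In a fit on transcripts, added after the data had been seen, 5149 of 25783 tested transcripts were called by limma (20%), of which 2527 rose (9.8% of those tested) and 2622 fell (10.2%). Of 1250 rising components with at least 2 transcripts, 794 held a transcript that rose, 43 a transcript that fell, and 453 no called transcript. Of 980 falling components of this kind, 669 held a transcript that fell, 62 one that rose, and 309 none. After rescaling to a common sum 4035 transcripts rose and 1493 fell. Without PCTR3 replicate 1 the numbers were 1255 and 1431, without PCTR3 replicate 2 they were 1380 and 1518, and without vehicle replicate 4 they were 1632 and 1729. Falls also dropped by more than 1.5 times without vehicle replicate 1, to 1743. A sum shares its data with its transcripts, so these counts are not independent of the calls. Among 4899 components of at least 2 transcripts that were not called, 219 held both a rising and a falling transcript.

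The PCTR3 libraries differed in how far they stood from vehicle. Over the 2519 rises, the median log2(TPM + 1) difference from the vehicle mean was 0.45, 0.56, 0.34 and 0.39 in PCTR3 replicates 1 to 4. Over the 2617 falls it was -0.36, -0.48, -0.26 and -0.35. Replicate 2 was the farthest from vehicle and replicate 3 the nearest in both lists. Vehicle replicate 4 lay on the far side of the other vehicle libraries, at -0.09 over the rises and 0.14 over the falls, against 0.00 to 0.05 and -0.05 to -0.03 in the others.

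Each library was also set against calls made without it. Of the components called without PCTR3 replicate 1, 2, 3 or 4, 99.3%, 99.3%, 96.5% and 98.4% lay on the called side of the vehicle mean in the omitted library. Over all tested components, between 49.8% and 50.3% lay above the vehicle mean in those libraries. That share ignores the called direction, so it is not what chance would give in this check. The size varied more than the side: the median change over the rises was 0.29 in replicate 3 and 0.47 in the fit without it, and 0.59 in replicate 2 and 0.45 in the fit without it. The vehicle libraries were shared between the calls and the check, so high agreement was in part built in and the shares are a description. The number of calls ran from 3563 without PCTR3 replicate 2 to 5302 without PCTR3 replicate 3, and was 4059 without vehicle replicate 4.

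**Figure D4:**
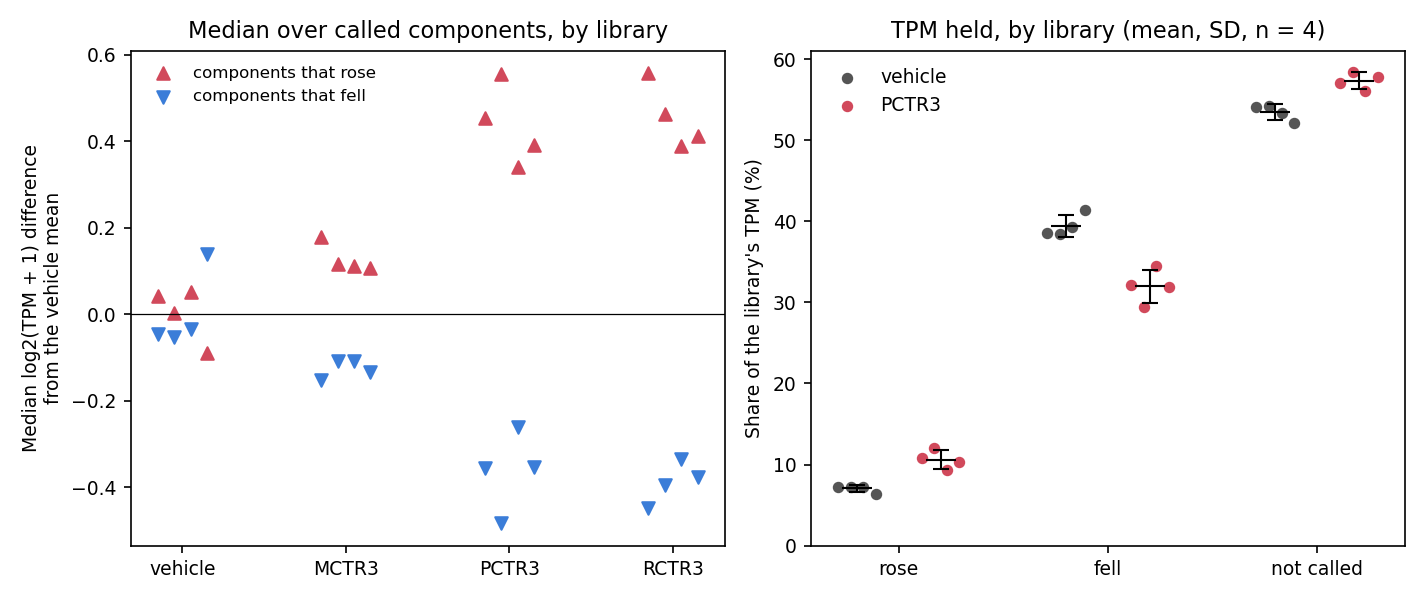
Left, median log2(TPM + 1) difference of each library from the vehicle mean, over the components that rose (red) or fell (blue) with PCTR3, for all 4 groups. Right, share of each library's TPM held by components that rose, fell or were not called, with the mean and SD of 4 libraries. PCTR3 replicate 2 stands farthest from vehicle and replicate 3 nearest, and the share of the falling components is lower in each PCTR3 library than in each vehicle library.

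The spread between libraries was alike in the 2 groups. The median SD of log2(TPM + 1) across components was 0.126 in vehicle and 0.13 with PCTR3, and 7934 of 15474 components (51.3%) had the larger SD with PCTR3.

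The other conjugates, MCTR3 from the maresin family and RCTR3 from the resolvin family, were given at the same dose for the same time. The difference of each from PCTR3 was tested over the same components. Deposited sums ran from 1000 to 1024 kTPM with MCTR3 and from 926.1 to 965.7 kTPM with RCTR3. Every MCTR3 sum was above every PCTR3 sum, while RCTR3 and PCTR3 sums overlapped. Each group also has its own run of library numbers. Compound and numbering thus cannot be told apart in either pair, nor compound and scale against MCTR3. PCTR3 differed from MCTR3 in 1830 components (11.8%), 924 higher (5.97%) and 906 lower (5.85%) with PCTR3. It differed from RCTR3 in 11 (0.0711%), 5 higher (0.0323%) and 6 lower (0.0388%). Both counts are from limma on 16 libraries, adjusted over all components of both pairs. The 5 higher with PCTR3 ranked 1558, 1875, 5241, 14337 and 14423 in abundance, and their differences lay between 0.20 and 0.91 log2 units. At ranks 1558, 1875 and 5241 the PCTR3 mean was below the vehicle mean, and the RCTR3 mean was lower still. Ranks 14337 and 14423, with differences of 0.59 and 0.91, had PCTR3 means of 2.41 and 2.29 TPM. The 6 lower with PCTR3 ranked 7055, 9809, 10876, 10888, 13497 and 14409, and their differences lay between -0.62 and -0.20 log2 units. When p-values were adjusted within each pair, 3001 components (19.4%) differed from MCTR3, 1503 higher (9.71%) and 1498 lower (9.68%), and none from RCTR3 (smallest adjusted p = 0.84, with 466 components, 3.01%, at an unadjusted p under 0.05). The calls against RCTR3 thus depended on pooling the pairs.

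The count against MCTR3 also depended on single libraries. It was 492, 686 and 2775 without PCTR3 replicates 2, 1 and 3, and 837, 706 and 828 without MCTR3 replicates 2, 3 and 4. Rescaling to a common sum left the total at 1884, with 1350 higher and 534 lower with PCTR3, and the common sum without the 100 most abundant components gave 1181 higher and 695 lower. The 95% interval of the difference from RCTR3 lay within 1.5-fold in 95.7% of the 15474 components, and in 98.7% of those 9929 whose mean reached 10 TPM. Against MCTR3 these shares were 84.9% and 89.8%. Differences smaller than these intervals could not be detected here.

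The named components can be set side by side across compounds. comp144303_c2 was at 12.2, 10.9, 11.3 and 9.03 TPM with MCTR3 and at 39.7, 30.7, 26.2 and 28.6 TPM with RCTR3. It was higher with PCTR3 than with MCTR3 by 1.51 on the log2(TPM + 1) scale (SE 0.15; limma adjusted p = 0.00043), and differed from RCTR3 by 0.07 (95% interval -0.24 to 0.39; limma adjusted p = 0.9). comp130022_c1 was at 6.89, 5.5, 7.71 and 6.56 TPM with MCTR3 and at 21.7, 7.3, 9.58 and 20.3 TPM with RCTR3, where the libraries fell into a high and a low pair. It differed from RCTR3 by 0.13 (95% interval -0.50 to 0.75; limma adjusted p = 0.91). Its difference from MCTR3 was 1.04 (SE 0.29; limma adjusted p = 0.046), a call that ended in 7 of 8 fits with a library of the pair left out, the exception being that without PCTR3 replicate 3, with adjusted p between 0.037 and 0.16.

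comp126198_c0 averaged 8.34 ± 1.71 TPM with MCTR3 and 5.32 ± 1.57 TPM with RCTR3 (SD, n = 4). It was lower with PCTR3 than with MCTR3 by a log2(TPM + 1) difference of -0.87 (SE 0.16; limma adjusted p = 0.0069), and its difference from RCTR3 was -0.30 (95% interval -0.63 to 0.03; limma adjusted p = 0.33). comp126198_c3 averaged 16.1 ± 3.05 TPM with MCTR3 and 10.8 ± 2.62 TPM with RCTR3, and it too was lower with PCTR3 than with MCTR3 (difference -0.83, SE 0.17; limma adjusted p = 0.011). Against the same vehicle libraries, the log2(TPM + 1) changes of comp144303_c2, comp130022_c1, comp126198_c0 and comp126198_c3 were 1.80, 1.69, -0.94 and -0.95 with RCTR3 and 0.36, 0.78, -0.37 and -0.41 with MCTR3. With RCTR3 each passed the threshold (limma adjusted p between 7.6e-06 and 0.00032), and with MCTR3 none did (limma adjusted p = 0.5 for each). Over all components of this fit, 6998 of 15474 were called against vehicle with RCTR3 (45.2%) and 0 with MCTR3, so the lack of calls with MCTR3 is not particular to these components. These 2 counts hold for the deposited scaling, and no other scaling or omission of a library was run for them. Every RCTR3 sum and every MCTR3 sum was below every vehicle sum. In the same fit 6155 were called with PCTR3, against 5136 in the fit on 8 libraries. The 4 named components then had limma adjusted p between 8.3e-06 and 0.00029 with PCTR3. The comparisons of RCTR3 and MCTR3 with vehicle share the vehicle libraries with that of PCTR3.

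Over the 2519 components that rose with PCTR3, the median difference from the vehicle mean was between 0.11 and 0.18 in the MCTR3 libraries and between 0.39 and 0.56 in the RCTR3 libraries. Over the 2617 that fell it was between -0.15 and -0.11 with MCTR3 and between -0.45 and -0.34 with RCTR3. The components were chosen partly for their level in the vehicle libraries, which all of these values share, so they are given as a description.

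**Figure D5:**
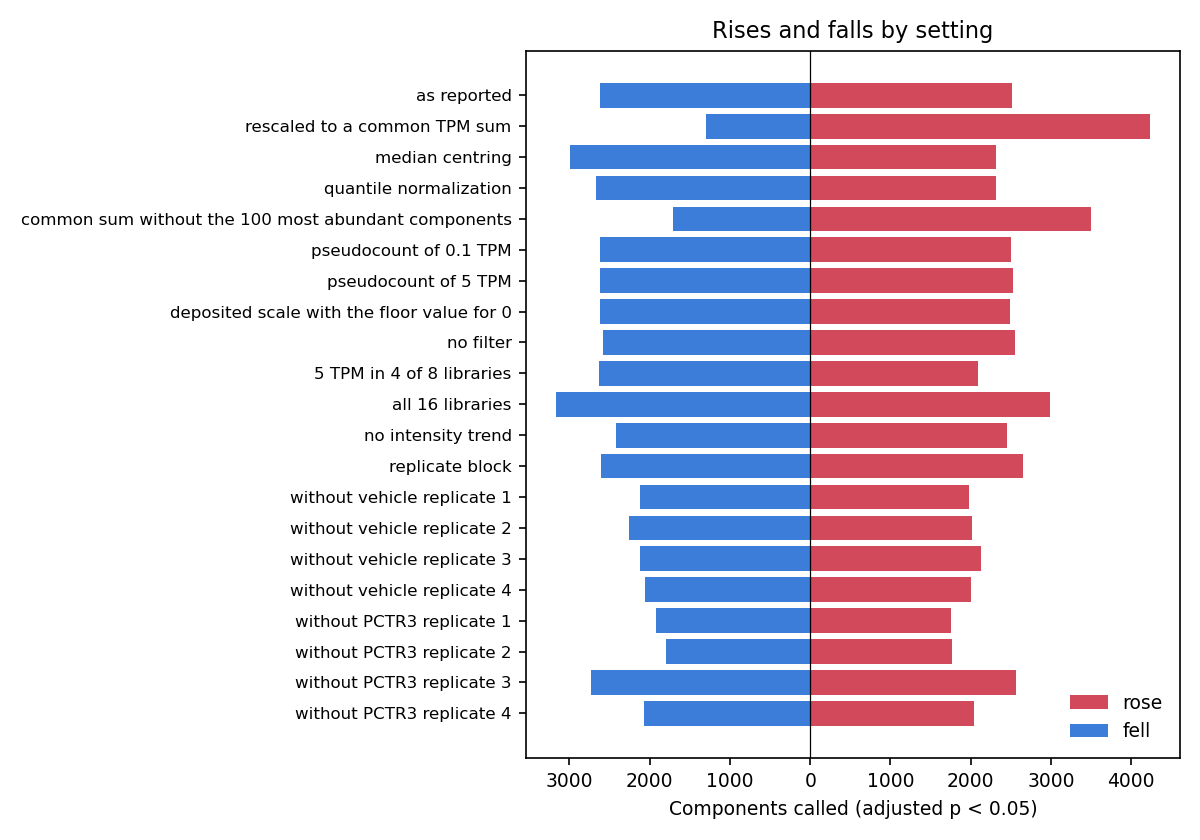
Number of components that rose (right, red) or fell (left, blue) between vehicle and PCTR3 under each setting drawn. The total stays between 3563 and 6155. The split is most uneven with a common TPM sum, with 4234 rises and 1304 falls from all 8 libraries. The common sum without vehicle replicate 4 is not drawn and gave 3320 rises and 1016 falls.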

How the data were processed

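The deposited values are log2 TPM for each transcript in each library, made by the authors from *D. japonica* transcript sequences, per the series' design text. kallisto and sleuth are named in the submitters' processing notes, without versions. Libraries were made from poly(A)+ RNA after Trizol extraction and read from both ends, per the labels' protocols and the design text. Linear TPM sums differ between libraries and are lower in every PCTR3 library than in every vehicle library. No source used here gives the reason.

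Values were turned to TPM as 2 to the power of the value, with the lowest value (-34.92) set to 0, and summed by component. limma 3.58.1 in R 4.3.3 was fitted to log2(TPM + 1), a scale that understates the change of low components, on the 8 libraries with an intensity trend. Compounds were compared in a fit on all 16 libraries, with p-values adjusted over both pairs together. P-values were two-sided, adjusted by the Benjamini-Hochberg method, with a threshold of 0.05. Single values per library were compared by exact permutation tests. The script was tested on simulated data. Alternatives were 4 other scalings, other pseudocounts and filters, a fit without the intensity trend, a replicate block and leaving out each library.

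Because the file gives no gene names, 2 rises and 2 falls were named: those with the largest change among called components above 0 in all 8 libraries, with a mean of at least 5 TPM, groups that did not overlap, and calls that held in each scaling and without each library. The 2 most abundant rises and 2 most abundant falls without overlap are given by rank. Other components given by rank were chosen after their values were seen. The rule for components and the lists were chosen with earlier results of these data known. Replicate numbers were not taken as pairs, though a pairing was not excluded.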

Additional observations from a re-analysis of the deposited data

Results flagged for a closer look

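Of 42 sets of 4 libraries examined, 5 held a library far from the other 3 (by the gap to the nearest divided by the whole range, against Dixon's critical value), a rate of which chance gives about 1 in 20. For comp130022_c1, PCTR3 replicate 2 was at 21.9 TPM and the next at 13.6 TPM (ratio 0.834). For comp126198_c0, RCTR3 replicate 4 was at 7.66 TPM and the next at 4.73 TPM (ratio 0.859). For the component ranked 5 in abundance, MCTR3 replicate 1 was at 7442 TPM and the nearest at 8142 TPM (ratio 0.843). The number of components at 1 TPM or more was 15396 in PCTR3 replicate 4 and at least 15504 in the other PCTR3 libraries (ratio 0.864). Over the components that fell with PCTR3, vehicle replicate 4 stood at a median log2(TPM + 1) difference of 0.14 from the vehicle mean and the next at -0.03 (ratio 0.901). That library also has the highest TPM sum, and without it 2000 components rose and 2059 fell.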

How the results depend on the processing

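Between PCTR3 and vehicle, the number of components called stayed within 1.5 times the reported 5136 under every alternative run, from 3563 to 6155, and so did the numbers that rose and fell except under rescaling to a common TPM sum (4234 and 1304) and, for falls, the common sum without the 100 most abundant components (1711) and the common sum without vehicle replicate 4 (1016, an alternative added after seeing the data). Leaving out 1 library gave 3563 to 5302 calls, 1753 to 2566 rises and 1798 to 2736 falls. The cause of the shift with scaling was not tested.

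With the replicate number as a block, 5262 components were called, 2657 rises and 2605 falls. Same-numbered vehicle and PCTR3 libraries deviated together with r of -0.174, 0.385, 0.173 and -0.0246 across components. Between libraries of unlike number r ran from -0.413 to 0.281, so the 0.385 of replicate 2 was the highest of all. The numbers were not taken as pairs, though these values do not exclude a pairing.

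Against MCTR3 the count of 1830 ran from 492 to 2775 with 1 library left out, and was 3001 with p-values adjusted within the pair. Against RCTR3 the count of 11 ran from 3 to 23 with 1 library left out, and was 18 with quantile normalization and 0 with p-values adjusted within the pair; the other settings gave 8 to 15. Adjustment within pairs was added after seeing the data.

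The difference in the number of components at 1 TPM or more ran from 156 to 236 components with 1 library left out (exact permutation p of 0.0286 or 0.0571) and was 215 at a minimum of 5 TPM (exact p = 0.0571). It was 139 at a minimum of 0.5 TPM and 324 after rescaling to a common TPM sum (exact permutation p = 0.0286 for each). The difference in the share of the 100 most abundant ran from -2.42 to -1.87 percentage points with 1 library left out (exact permutation p of 0.0286 or 0.0571). Depth is unknown, so no counting limit could be set for low components.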
